A study of Rattus norvegicus with 21 samples.

Results

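Activins, inhibins and the proteins that bind them are encoded by a small set of genes, and 8 of these were followed here: the subunit genes Inha, Inhba and Inhbb, the binding protein genes Fst and Fstl3, and the receptor genes Acvr1b, Acvr2a and Acvr2b. All probe sets with one of these symbols in the platform annotation were taken, which gave 10 of the 31042 probe sets of the array that were not control probe sets. Acvr1b had no probe set under its symbol, so 7 of the 8 genes were measured, among 14217 genes named on the array. Inhba, Fst and Fstl3 had 2 probe sets each, and the probe set with the higher mean log2 signal over all arrays is given first for each gene. All 10 passed the filter on low signal, which kept 21858 probe sets.

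RNA was measured in the anterior pituitary of male rats on an Affymetrix Rat Genome 230 2.0 array, and the rats were of the ACI strain, the Brown Norway (BN) strain or the Copenhagen (COP) strain, all inbred. Control rats carried an empty silastic implant and treated rats a silastic implant with 5 mg of diethylstilbestrol (DES), a synthetic estrogen, from 9 weeks of age until 21 weeks of age, which is 12 weeks of treatment. Every rat of the 6 groups, controls included, received BrdU at 50 mg/kg 4 hours before death, and there were 3 control and 4 DES arrays per strain, 21 in all. ACI and BN rats came from one supplier and COP rats from another, so that strain and supplier cannot be told apart for COP. The study compared how the pituitary of these strains responds to estrogen. The sources differ on replication: by the design text all arrays are separate biological replicates, while the notes of the samples name 1 fewer replicate for each group. Each array was treated here as 1 rat.

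Activins are dimers of the beta subunits that Inhba and Inhbb encode, and inhibins pair one of these subunits with the alpha subunit that Inha encodes. In the pituitary, activin acts on gonadotrophs through a type II receptor (Acvr2a, Acvr2b) and a type I receptor (Acvr1b), and the Smad2, Smad3 and Smad4 proteins carry the signal to the follicle-stimulating hormone gene Fshb. Follistatin (Fst) and follistatin-like 3 (Fstl3) bind activin and keep it from its receptors, and inhibin occupies the type II receptor without starting the signal.

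Signals are in the units of the array, in which each array has a trimmed mean between 500.1 and 500.2. The 40th percentile of an array lay between 67 and 90.6, and a signal under that range is near the floor. The Inha, Inhbb, Acvr2a and Acvr2b probe sets lay above it on all 21 arrays, both Inhba probe sets on 9, the Fst probe sets on 3 each, and the Fstl3 probe sets on 16 and 7. Changes are differences of mean log2(signal + 16), which understate the change of low signals, and DES moved the median over all probe sets by -0.131 (ACI), -0.089 (COP) and -0.064 (BN). BN DES arrays 3 and 4 stood apart from BN DES arrays 1 and 2. The root mean square log2 difference was 0.649 to 0.706 between the pairs, against 0.346 to 0.577 between arrays within the other 5 groups. A result with BN DES-treated rats is therefore also given without these arrays where its call changed. The direction of a small BN change without a call, such as that of Acvr2a, could also turn without these arrays. Such a turn is given for Fstl3 only. The neural lobe hormone gene Oxt had signals of 206.7, 81.6 and 229.6 in the COP controls and at most 92.8 elsewhere, and the glial gene Gfap had 647.5 in COP control 3 and at most 149.2 elsewhere.

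The bases before the annotated start of 3 members are shown because the response of Inhbb and Fstl3 to the estrogen differed between ACI and BN and because Inha encodes the subunit that pairs with the Inhbb product in inhibin B. Each run is the 250 bases before the gene start from RefSeq (GRCr8), 5′ to 3′ on the strand of the gene, and capitals mark the letters GGTCA or TGACC, which are each other's reverse complement and form one arm of the estrogen response element.
Inha, chr9:84442859-84443108, plus strand: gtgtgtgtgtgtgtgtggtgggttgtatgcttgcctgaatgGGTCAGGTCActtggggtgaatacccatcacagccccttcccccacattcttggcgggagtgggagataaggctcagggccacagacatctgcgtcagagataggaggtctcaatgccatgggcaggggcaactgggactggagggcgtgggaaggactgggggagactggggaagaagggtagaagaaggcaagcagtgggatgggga
Fstl3, chr7:10579845-10580094, minus strand: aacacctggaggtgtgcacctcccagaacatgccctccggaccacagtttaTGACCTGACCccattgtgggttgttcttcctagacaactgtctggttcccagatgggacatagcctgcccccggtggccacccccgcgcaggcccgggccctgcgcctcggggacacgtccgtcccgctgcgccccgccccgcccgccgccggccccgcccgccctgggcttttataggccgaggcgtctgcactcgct
Inhbb, chr13:33089374-33089623, minus strand: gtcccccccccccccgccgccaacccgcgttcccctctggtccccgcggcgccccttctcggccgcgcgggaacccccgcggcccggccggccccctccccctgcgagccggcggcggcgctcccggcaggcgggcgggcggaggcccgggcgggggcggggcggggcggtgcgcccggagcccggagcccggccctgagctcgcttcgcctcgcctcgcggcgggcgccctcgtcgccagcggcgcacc
Inha and Fstl3 each held 2 such arms next to each other, which began 209 and 204 bases before the start in Inha and 199 and 194 bases before it in Fstl3. At least 1 arm was found in 35.4% of the 33469 promoters of the same length and at least 2 in 8.37%. The complete element, searched as GGTCANNNTGACC, occurred in 0.0239% of promoters and in none of the 7 members with a promoter entry (Fst had none). Inhba, Inhbb, Acvr1b, Acvr2a and Acvr2b held no arm in this window. The Inhbb window was 86.8% G or C, against a median of 51.2% over all promoters.

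With DES, the inhibin and activin beta B subunit gene Inhbb fell in ACI and COP, and the activin-binding protein gene Fstl3 rose in ACI. In ACI, 4 of the 10 member probe sets changed, where 49.1% of all probe sets tested were called; 1 was higher, as were 19.8% of all, and 3 were lower, as were 29.3%. In COP 3 of 10 changed, where 43.1% of all were called, with 2 higher (17.9% of all) and 1 lower (25.2%). In BN 2 of 10 changed, where 33.5% of all were called, with 1 higher (14% of all) and 1 lower (19.4%). These counts include 1369012_at of Inhba and both Fst probe sets, which passed the filter through arrays of 1 treatment only, and with no filter they were 4, 2 and 1. The members had a median log2 change of -0.21 (ACI), -0.11 (COP) and -0.33 (BN). The 2 treatment groups were fully apart for 7 of the 10 probe sets in ACI, 3 in COP and 2 in BN, against 54%, 48.3% and 36.8% of all probe sets. RNA came from whole glands, so fewer cells of a type and less RNA per cell cannot be told apart.

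**Figure D1:**
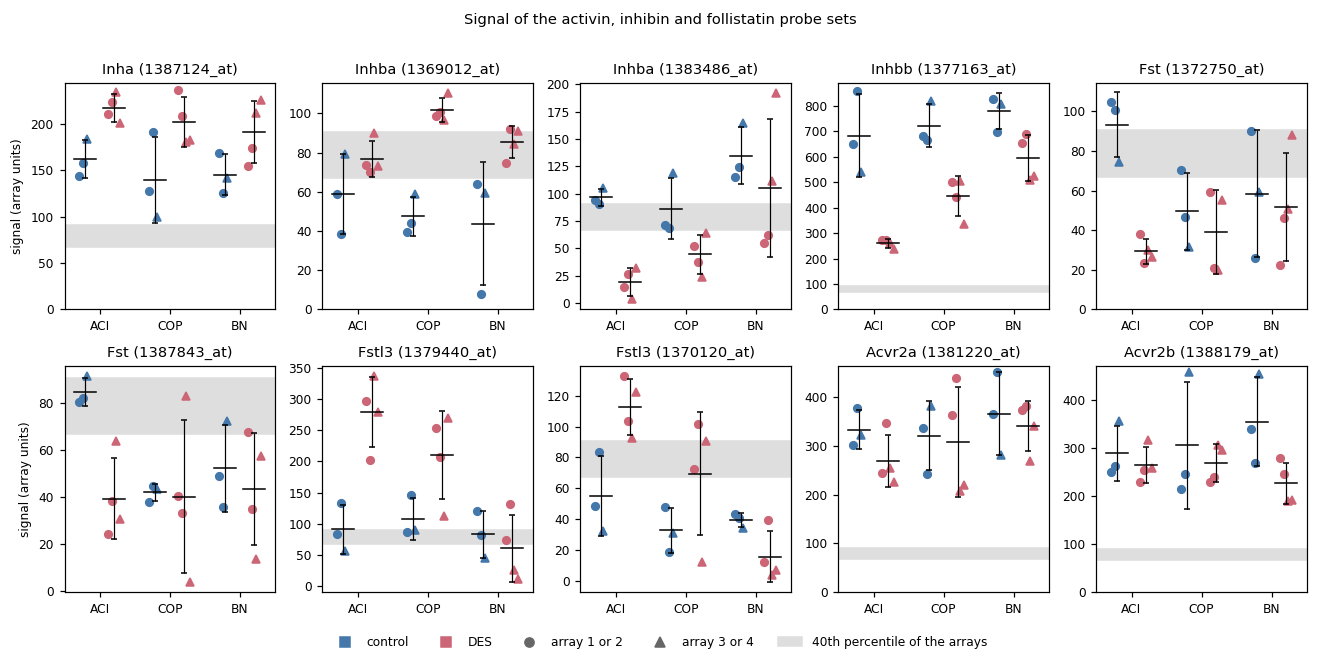
Signal of each of the 10 member probe sets on every array (vertical axis, array units, linear and starting at or below 0), by strain, with controls on the left and DES on the right of each strain; circles are arrays 1 and 2 and triangles arrays 3 and 4 of a group, lines are means, bars are SD (n = 3 controls and 4 DES), and the grey band is the range of the 40th percentile over the arrays. The Inhbb values of ACI DES rats (235.8 to 274.6) lie under all other Inhbb values.

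Inhbb (1377163_at) was the member with the smallest adjusted p in ACI and COP. In ACI its signal was 651.7, 859.5 and 539 in the controls and 274.6, 271.2, 260.6 and 235.8 in the DES-treated rats. In COP it was 681, 665.7 and 820.1 in the controls and 501, 442.6, 506.2 and 337.3 with DES. In BN it was 829.1, 699 and 808.7 in the controls and 654, 688.3, 506.9 and 526.3 with DES. In each strain every DES value lay below every control value. Control means were 683.4 ± 163, 722.3 ± 85.1 and 778.9 ± 70 (SD, n = 3) for ACI, COP and BN, and the means with DES were 260.6 ± 17.5, 446.8 ± 78.5 and 593.9 ± 90.7 (SD, n = 4). The log2 change was -1.32 ± 0.162 (SE) in ACI, a 2.49-fold fall with an adjusted p of 5.89e-07 by limma, and -0.68 ± 0.162 in COP, a 1.61-fold fall with an adjusted p of 0.00158. In BN it was -0.39 ± 0.162 with an adjusted p of 0.0687 and a 95% interval of -0.73 to -0.05. A two-sided exact permutation test over the 35 splits of 7 arrays gave p = 0.0286, the smallest it can give, in ACI and in COP, and p = 0.0571 in BN. The ACI and COP falls were called under all 19 alternatives each, with changes of -1.47 to -1.07 and -0.96 to -0.50.

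Inha (1387124_at), the alpha subunit gene, was higher on average with DES in each strain. In ACI the signal was 144.2, 157.7 and 184.2 in the controls and 210.3, 223.4, 234.9 and 200.9 with DES. In COP it was 127.5, 191.1 and 99.8 against 237, 208.6, 180.4 and 182.2, and in BN 168.7, 125.3 and 142 against 154.2, 173.5, 211.3 and 225.6. The groups were apart in ACI and overlapped in COP and BN. Inha rose in COP, with a log2 change of 0.52 ± 0.193 (SE, adjusted p = 0.0329). The ACI change of 0.39 ± 0.193 (adjusted p = 0.0968) and the BN change of 0.36 ± 0.193 (adjusted p = 0.167) missed the threshold. The COP rise was lost without COP control 3, the array with the high Gfap signal and the lowest Inha value of its group (0.33, adjusted p = 0.222), and also without COP control 1, COP DES 1 or COP DES 2, with adjusted p from 0.0627 to 0.0944. Inha passed in ACI when the arrays were brought to a common median (0.61, adjusted p = 0.0117) or quantile normalized (0.58, adjusted p = 0.016), which moved the median change of all probe sets in ACI to 0.084 and -0.021. The COP rise was called in 10 of 18 alternatives, with adjusted p from 0.00508 to 0.222, and in ACI the adjusted p ran from 0.0117 to 0.653.

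The 2 probe sets of Inhba, the beta A subunit gene, had changes of opposite sign in each strain. Their log2 signals had a Pearson correlation of -0.35 over the 21 arrays, so the data give no single direction for the gene. For 1369012_at the signal in COP was 39.5, 44.1 and 58.8 in the controls and 98.5, 100.7, 96.5 and 110.4 with DES, and in BN 64, 7.8 and 59.5 against 74.6, 91.8, 84.1 and 91.2. The groups did not overlap in COP or BN, and the probe set rose by 0.90 ± 0.325 (SE, adjusted p = 0.0294) and 0.95 ± 0.325 (adjusted p = 0.0279) on the log2 scale. It exceeded the 40th percentile on 9 arrays, all of them of DES-treated rats, and so passed the filter through the groups in which it was higher; with no filter the adjusted p was 0.0434 in COP and 0.0412 in BN. In ACI it had 59, 38.6 and 79.5 in the controls and 73.5, 70.1, 89.9 and 73.3 with DES, a change of 0.34 with an adjusted p of 0.412. The BN rise rested on BN control 2, with a signal of 7.8, and was 0.38 with an adjusted p of 0.305 without it; it was also lost without BN DES 2 or BN DES 4 (adjusted p of 0.0509 and 0.0565) and without BN DES arrays 3 and 4 together (adjusted p = 0.102). The COP rise was lost without COP control 1, COP control 2 or COP DES 4 (adjusted p from 0.0581 to 0.0964). The calls held in 12 of 18 alternatives for COP, with adjusted p from 0.0115 to 0.36, and in 12 of 19 for BN, with adjusted p from 0.011 to 0.561.

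For the other Inhba probe set, 1383486_at, the signal in ACI was 94.2, 90.3 and 105.4 in the controls and 14.9, 26.3, 3.5 and 32.1 with DES. It fell by 1.76 ± 0.368 (SE, adjusted p = 0.0004) on the log2 scale, and the DES values were below the 40th percentile of their arrays. In COP the signal was 71.7, 68.5 and 118.9 against 52.4, 37.3, 23.9 and 63.9, without overlap, a change of -0.78 with an adjusted p of 0.095. In BN it was 115.5, 124.6 and 164.5 against 54.8, 62.1, 111.8 and 191.9, a change of -0.44 with an adjusted p of 0.387. BN DES arrays 1, 2 and 3 lay below every BN control and array 4 above them all.

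Fst (1372750_at), which encodes follistatin, fell in ACI from 104.9, 100.5 and 74.5 in the controls to 37.9, 23.2, 30.2 and 26.2 with DES. The values did not overlap, and the change was -1.27 ± 0.386 (SE, adjusted p = 0.00925; exact permutation p = 0.0286). In COP the signal was 70.2, 46.7 and 31.5 against 59.2, 21.1, 20 and 55.2 and in BN 90.1, 25.9 and 59.1 against 22.3, 46, 50.6 and 88.1, and the groups overlapped in both. The changes there were -0.30 (adjusted p = 0.569) and -0.12 (adjusted p = 0.841). The difference in response was not called by limma for ACI against BN (-1.14, adjusted p = 0.183) or against COP (-0.97, adjusted p = 0.593). The second Fst probe set, 1387843_at, had 80.5, 82.2 and 91.7 in the ACI controls and 24.4, 38.5, 64.1 and 30.9 with DES, a change of -0.91 ± 0.435 with an adjusted p of 0.089. Its COP and BN changes were -0.26 and -0.27 (adjusted p of 0.669 and 0.676). Each of these probe sets exceeded the 40th percentile on 3 arrays, all of them controls. This signal is what let them through the filter, and 1387843_at passed on the 3 ACI controls alone. With no filter the limma adjusted p in ACI was 0.0109 for 1372750_at and 0.107 for 1387843_at. The correlation of the pair over the 21 arrays was 0.20.

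Fstl3, whose product is related to follistatin, showed a rise in ACI by 1379440_at. The signal was 84.2, 133.9 and 56.3 in the ACI controls and 297.4, 202.9, 337.2 and 279.9 with DES, without overlap. The mean was 91.5 ± 39.3 (SD, n = 3) without and 279.4 ± 56.3 (SD, n = 4) with DES, a log2 change of 1.50 ± 0.433 (SE), which is 2.83-fold, with an adjusted p of 0.00629 by limma and an exact permutation p of 0.0286. The rise was called under all 19 alternatives, at 1.10 to 2.16. In COP the signal was 87.4, 146.5 and 89.3 in the controls and 254.1, 207.4, 112.8 and 269.3 with DES. Of the COP DES values, 3 lay above all controls and that of array 3 within them, and the change of 0.84 ± 0.433 had an adjusted p of 0.124. In BN the signal was 121.1, 82.3 and 45.7 in the controls and 74.1, 131, 26.1 and 11.7 with DES. The BN change was -0.58 ± 0.433 (adjusted p = 0.324), and it turned to 0.29 without BN DES arrays 3 and 4 (adjusted p = 0.628). The second Fstl3 probe set, 1370120_at, had changes of 0.91, 0.67 and -0.93 in ACI, COP and BN (adjusted p values of 0.0903, 0.235 and 0.111), and the pair correlated at 0.83 over the 21 arrays.

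The type II receptor genes moved less. Acvr2a (1381220_at) had control means of 333.9, 321.4 and 366.5 and DES means of 268.9, 308 and 341.8 in ACI, COP and BN, with overlapping groups. The log2 changes were -0.31, -0.10 and -0.08, with adjusted p values of 0.286, 0.755 and 0.82, and their 95% intervals ran from -0.79 to 0.17, from -0.58 to 0.38 and from -0.56 to 0.40. Acvr2b (1388179_at) had 341.5, 270.3 and 455.8 in the BN controls and 279.2, 246, 191.1 and 193.3 with DES, and fell by 0.60 ± 0.224 (SE, adjusted p = 0.0443) on the log2 scale. The highest BN DES value lay above the lowest control. In ACI and COP its changes were -0.11 and -0.12 (adjusted p values of 0.705 and 0.708). Array 3 was the highest of the controls in each strain for Acvr2b, with 356.2, 458.7 and 455.8. The BN fall was not called without BN control 1, BN control 3, BN DES 3 or BN DES 4, nor without BN DES 3 and 4 together (-0.39, adjusted p = 0.301), nor with median centring (-0.52, adjusted p = 0.0901) or quantile normalization (-0.47, adjusted p = 0.128). It was called in 9 of 20 alternatives, with adjusted p from 0.00642 to 0.416.

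**Figure D2:**
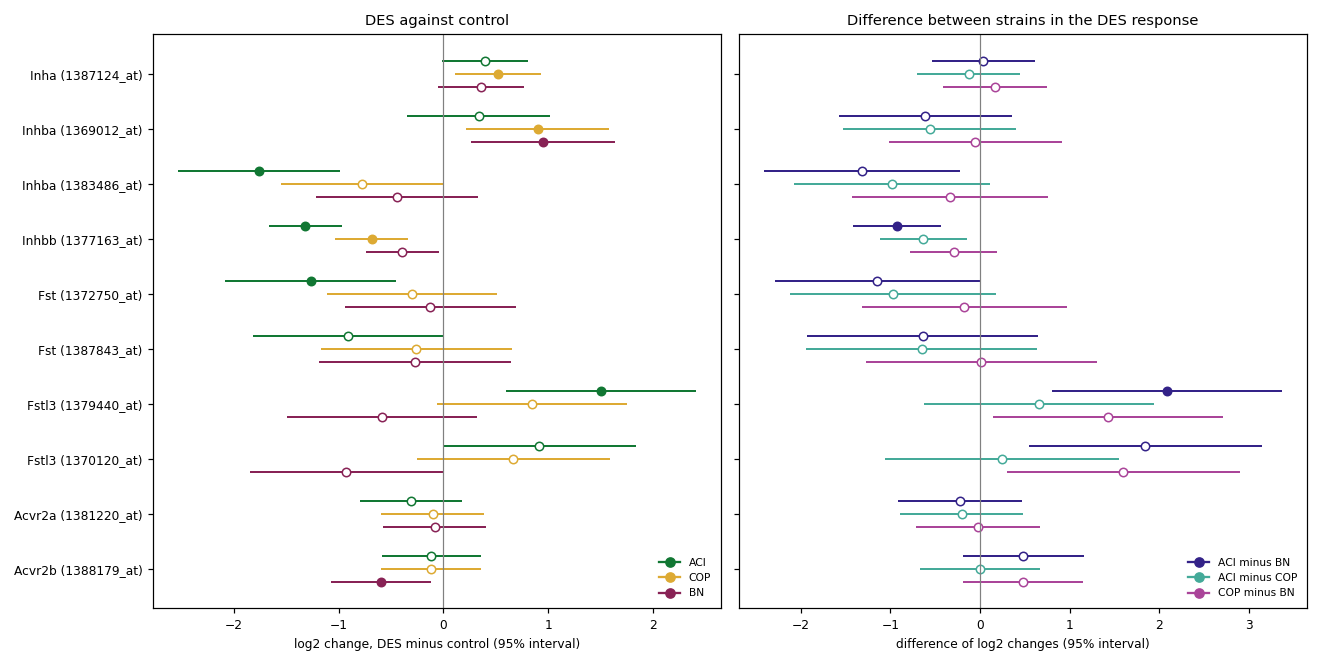
Log2 change with DES (left, DES minus control, for ACI, COP and BN) and the difference of these changes between strains (right) for each member probe set; points are estimates from the limma fit, bars are 95% intervals, and filled points have an adjusted p under 0.05. Inhbb lies at -1.32, -0.68 and -0.39 in ACI, COP and BN, and Inhbb and Fstl3 (1379440_at) are the filled points on the right.

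Control rats of the 3 strains did not differ in any member probe set at an adjusted p under 0.05 by limma. The counts were 0 of 10 for ACI against BN, ACI against COP and COP against BN, where 6.77%, 1.2% and 5.69% of all probe sets were called, and no member had an unadjusted p under 0.05 in any of the 3 comparisons. In the controls the log2 difference of Inhbb, ACI minus BN, was -0.21, with a 95% interval of -0.57 to 0.15. That of Fstl3 (1379440_at) was 0.13, with an interval of -0.83 to 1.09. Both Fst probe sets had higher means in ACI controls, without a call. For 1372750_at the log2 difference was 0.64 over BN (interval -0.21 to 1.50) and 0.77 over COP (-0.09 to 1.63). For 1387843_at it was 0.59 (-0.37 to 1.56) and 0.80 (-0.17 to 1.76).

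In DES-treated rats, Inhbb was lowest in ACI and both Fstl3 probe sets were lowest in BN. Between ACI and BN, 4 of 10 member probe sets differed, where 31.3% of all were called. Inhbb had a log2 difference of -1.13 ± 0.15 (SE, ACI minus BN, adjusted p = 4.9e-06), and Inhba 1383486_at had a log2 difference of -1.73 (adjusted p = 0.000459). The Fstl3 probe sets were higher in ACI, with log2 differences of 2.21 (adjusted p = 0.000188) and 2.14 (adjusted p = 0.000311). Between ACI and COP, Inhbb alone differed, at -0.73 ± 0.15 (adjusted p = 0.00427), where 4.68% of all were called. Between COP and BN, the Fstl3 probe sets differed, at 1.79 (adjusted p = 0.00235) and 1.37 (adjusted p = 0.0179), where 22.2% of all were called; without BN DES arrays 3 and 4 they were 0.91 and 0.92 with adjusted p of 0.0833 and 0.184, and over the alternatives the adjusted p ran from 0.000213 to 0.0833 and from 0.000769 to 0.228. The 1370120_at difference was also not called without COP DES 2, COP DES 4 or BN DES 3 (adjusted p from 0.0591 to 0.0681). Inhbb between COP and BN was -0.40 with an adjusted p of 0.0581, and it passed without BN DES arrays 3 and 4 (-0.59, adjusted p = 0.0201). In the order of group means Inhbb ran from BN controls over COP and ACI controls to DES-treated BN, COP and ACI rats. Neighbouring groups in this order overlapped down to DES-treated BN rats, and the ranges of DES-treated BN, COP and ACI rats did not overlap. The BN and COP ranges nearly touched, with a lowest BN value of 506.9 and a highest COP value of 506.2, and their difference was not called. These comparisons share the DES arrays of each strain.

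The response to DES differed between ACI and BN for Inhbb and for Fstl3. Of the 10 member probe sets 2 were called, where 14.1% of all were called. The difference of log2 changes for Inhbb was -0.92 ± 0.229 (SE, adjusted p = 0.00856), from -1.32 in ACI and -0.39 in BN. It kept its call in 26 of 27 alternatives and was -0.44 with an adjusted p of 0.489 in arrays numbered 3 and 4 alone. For Fstl3 1379440_at the difference was 2.09 ± 0.612 (adjusted p = 0.0246), from 1.50 in ACI and -0.58 in BN. It was 1.21 with an adjusted p of 0.122 without BN DES arrays 3 and 4, and it also lost its call without ACI control 3 (1.83, adjusted p = 0.0747), BN control 1 (1.81, adjusted p = 0.0801) or BN control 2 (2.05, adjusted p = 0.0525); the adjusted p ran from 0.00345 to 0.122 over the alternatives. Fstl3 1370120_at had a difference of 1.84 with an adjusted p of 0.0508 and passed in 9 of 26 alternatives (adjusted p from 0.0181 to 0.229). Between ACI and COP, 0 of 10 were called by limma, where 0.526% of all were called, and Inhbb was the 1 member with an unadjusted p under 0.05 (-0.63, adjusted p = 0.293). Between COP and BN, 0 of 10 were called, where 5.22% of all were called, and both Fstl3 probe sets had an unadjusted p under 0.05 (1.43 and 1.60, adjusted p of 0.205 and 0.154).

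The other genes of the activin pathway were taken from 5 lists with 36 different genes, of which 27 had a probe set and 24 passed the filter. With DES 3 rose and 12 fell in ACI, 4 rose and 8 fell in COP, and 3 rose and 8 fell in BN, with median log2 changes of -0.52, -0.09 and -0.18. Over all probe sets tested the higher share was 19.8%, 17.9% and 14% for ACI, COP and BN, and the lower share 29.3%, 25.2% and 19.4%. Of 2 other ligand genes tested, Gdf11, a relative of myostatin, fell in ACI (-0.82) and BN (-1.37) and had -0.18 in COP, where it did not pass. Inhbe, the beta E subunit gene, had changes of 0.41, 0.72 and 0.79 with adjusted p from 0.257 to 0.541.

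Of the 4 other receptor and co-receptor genes tested, Igsf1 and Bambi were called in each strain. Igsf1, which encodes a pituitary membrane glycoprotein, rose by 1.20, 1.03 and 0.92 in ACI, COP and BN by its strongest probe set, whereas its other probe set, 1370410_at, had -0.42, -0.41 and -0.34, the first of them called. Bambi, a decoy receptor of the family, fell in each strain (-1.77, -2.20 and -1.66). Tgfbr3, the inhibin co-receptor betaglycan, had -0.27, 0.55 and -0.30, and Acvr1, a type I receptor gene, had 0.20, -0.004 and -0.16, none of them called; median centring gave Acvr1 a call in ACI (0.42, with adjusted p of 0.0169 to 0.51 over the alternatives).

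Of 12 Smad and modulator genes tested, 1 rose and 6 fell in ACI, and 1 rose and 4 fell in COP and in BN, to be read against the same shares. Smad2 fell in ACI, COP and BN (-0.62, -0.50 and -0.44), Smad3 had 0.22, 0.03 and -0.005 without a call, and Smad4 rose in COP (0.28) and BN (0.31) and had 0.12 in ACI. Smad3 was called in ACI with median centring (0.44) and with quantile normalization (0.39), and Smad4 with median centring (0.34). The Smad2 falls in COP and BN were lost under both scalings. The COP fall of Smad2 was also lost without COP control 3 (adjusted p = 0.0708). Its BN fall was lost without BN control 2, BN control 3, BN DES 3 or BN DES 4 (adjusted p from 0.0541 to 0.101). Smad7, which encodes an inhibitory Smad, fell too (-1.01, -0.59 and -0.55), and its COP and BN falls were lost under both scalings and with no filter. The COP fall of Smad7 was also lost without COP control 2, COP control 3 or COP DES 2 (adjusted p from 0.0698 to 0.18). Its BN fall was lost without any single BN control or BN DES 1, 2 or 4 (adjusted p from 0.0556 to 0.152). Without BN DES arrays 3 and 4 the BN changes were -0.33 for Smad2 (adjusted p = 0.194), 0.22 for Smad4 (adjusted p = 0.109) and -0.64 for Smad7 (adjusted p = 0.0716), and the COP rise of Smad4 was lost without COP control 3 (adjusted p = 0.0866). Another Smad7 probe set, 1368898_at, had 0.51, 0.04 and 0.68 without a call. Skil, whose product represses Smad targets, fell in each strain (-1.33, -0.96 and -0.52), and so did Dact2, whose product promotes the breakdown of receptors of this family (-1.11, -0.86 and -1.60).

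Among 3 extracellular genes tested, Pcsk6, a convertase that cleaves precursors of this family, rose by 1.76 in ACI, 1.74 in COP and 0.60 in BN. Its signal was 2976.3 to 3849.7 in ACI controls and 10980.5 to 12628.3 in DES-treated ACI rats, and in BN it was 2960.6 to 3405.6 without and 3833 to 5804.9 with DES. Furin, another convertase, rose in COP (0.73) and had 0.40 in ACI and -0.08 in BN; it was called in ACI with median centring (0.61) and quantile normalization (0.56). Wfikkn1, whose product binds Gdf11, fell in ACI (-0.95) and had -0.29 in COP and -0.04 in BN. The Wfikkn1 fall was called in 13 of 18 alternatives and was lost with median centring (adjusted p = 0.0632) and without ACI control 3 (0.0935) or ACI DES 3 (0.0599).

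Of 5 genes listed as pituitary targets of activin, none rose, while 4 fell in ACI, 4 in COP and 3 in BN. Over all probe sets tested the lower share was 29.3%, 25.2% and 19.4%. The 5 genes include Smad7, which is also counted among the Smad genes. Fshb fell in each strain, with log2 changes of -5.63, -5.38 and -4.62. Its signal ran from 8830.2 to 11940.1 in ACI controls and from 182.6 to 216.9 in DES-treated ACI rats, with 11096.6 to 12976.9 against 245.2 to 314.6 for COP and 8551.8 to 11520.4 against 342.7 to 434 for BN. Gnrhr, the receptor for gonadotropin-releasing hormone, fell in each strain (-3.38, -2.37 and -1.37). Foxl2, a transcription factor that works with Smads at Fshb, fell in ACI (-1.60) and COP (-0.57) and had -0.22 in BN. The COP fall was called in 12 of 19 alternatives and was lost with quantile normalization (adjusted p = 0.125), with median centring (0.0837) and without COP control 2, COP control 3, COP DES 1 or COP DES 2 (0.0641 to 0.159). The response differed between ACI and BN for Fshb (-1.01, adjusted p = 0.000455), Gnrhr (-2.01, adjusted p = 0.000145), Foxl2 (-1.38, adjusted p = 0.00284), Skil (-0.81, adjusted p = 0.00674) and Pcsk6 (1.15, adjusted p = 0.00011). Between COP and BN the Gnrhr difference of -0.99 had an adjusted p of 0.0691, and it was called without BN DES arrays 3 and 4 (-1.48, adjusted p = 0.000535).

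**Figure D3:**
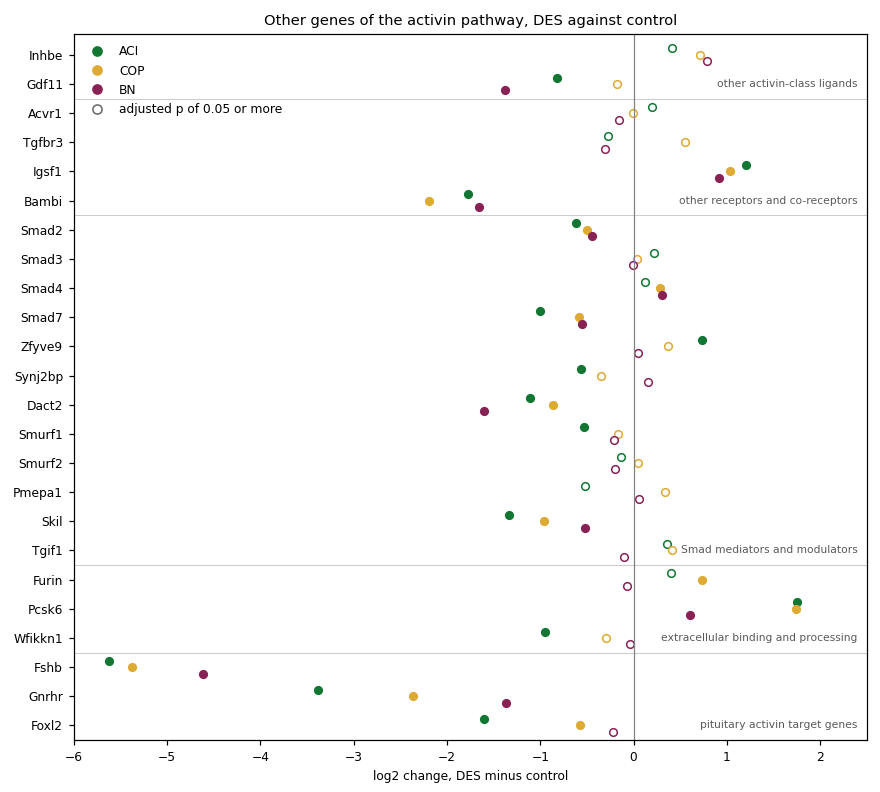
Log2 change with DES (horizontal axis, DES minus control) of the 24 other activin pathway genes that passed the filter, 1 row per gene and 1 point per strain, grouped by list; filled points have an adjusted p under 0.05. Fshb has the largest falls, at -5.63, -5.38 and -4.62, and Igsf1 and Pcsk6 lie to the right of 0 in each strain.

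Markers of several cell types moved with DES alongside these genes. Their counts are to be read against all probe sets tested. Of these, 19.8%, 17.9% and 14% were called higher in ACI, COP and BN, and 29.3%, 25.2% and 19.4% lower. Of 6 markers of gonadotrophs, cells known to express Inha and Inhbb, 5 fell in ACI and COP and 4 fell and 1 rose in BN. Their summed signal was 49323 to 71128 in ACI controls against 28086 to 31005 with DES. The sums for COP were 58294 to 63165 against 33322 to 42676, and those for BN 47904 to 54604 against 35151 to 62547. With DES the shared hormone subunit gene Cga made up most of the sum, which therefore does not give the size of the fall. Mean Cga signals with DES were 28772 (ACI), 36662 (COP) and 43537 (BN), and Cga was the marker that rose in BN. Mean Lhb signals went from 16642 to 230 (ACI), 17303 to 356 (COP) and 14079 to 1137 (BN). Of 7 markers of folliculostellate cells, a known source of follistatin, 6 fell in ACI and COP and 4 fell and 1 rose in BN, and the sum went from 11870 to 14331 down to 2129 to 2721 (ACI), 12350 to 12899 down to 3817 to 5018 (COP) and 15476 to 17244 down to 8601 to 9955 (BN). All 8 macrophage and leukocyte markers rose in ACI and COP and 5 in BN, and their sum went from 2568 to 3099 up to 12386 to 14344 (ACI), 2005 to 2910 up to 11532 to 15662 (COP) and 4129 to 4891 up to 6575 to 11115 (BN). Of 6 fibroblast markers 1 rose and 3 fell in ACI, 1 rose and 4 fell in COP and 2 fell in BN. Of 4 endothelial markers tested 2 fell in ACI, 0 were called in COP and 1 rose in BN. Of 3 lactotroph markers 1 fell in ACI, and 1 rose and 1 fell in COP and in BN. The marker that fell was Pou1f1 (-0.74, -0.71 and -0.59 in ACI, COP and BN). Prl rose in COP (0.62) and BN (0.77) and had 0.40 in ACI without a call. Its signals of 24379.6 to 68841.3 were near the highest on the arrays, 71813.9. Drd2 had 0.34, 0.13 and -0.35 without a call. The part of these cell types in the changes of the members was not tested. Of 6 hormone genes that mark the anterior pituitary, Prl, Gh1, Tshb, Lhb and Cga lay above the 40th percentile on all 21 arrays and Pomc on 16.

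Genes with the pattern most like each member over the 21 arrays were found by Pearson correlation of log2 signals, as a description over arrays that share the 6 groups. Inhbb was followed most closely by Rtn1 (0.97), Aldoc (0.96) and Cnn3 (0.95), and Fstl3 by Cers2 (0.91), Eif3c (0.87) and Syne2 (0.87). For Inha these were Atf1 (0.85), Tbc1d15 (0.84) and Plcb2 (0.84), and for Inhba 1369012_at Creb5 (0.84), Nol8 (0.82) and Lrrfip1 (0.81). Fst was nearest to Ephb4 (0.76), Rad50 (0.75) and Msantd2 (0.75), Acvr2a to Tmem39b (0.76), Fbxo10 (0.74) and Naa40 (0.72), and Acvr2b to Larp4b (0.87), Zfp148 (0.83) and Phf20 (0.82).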

How the data were processed

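Total RNA of anterior pituitaries was labelled with biotin and hybridized in 1 colour. The deposited values are linear intensity signals, 1 for each probe set (0.1 to 71813.9), which the authors had scaled to a common 2% trimmed mean per array with software not given in the sources used here. Of 31099 probe sets, the 57 that are Affymetrix controls were dropped. Gene symbols came from the platform annotation (20826 probe sets with 1 symbol, 436 with several, 9780 with none). Tests covered probe sets with a signal above their array's 40th percentile on 3 or more arrays. Signals were converted to log2 after 16 was added, and limma 3.58.1 (R 4.3.3) fitted the 6 group means to all 21 arrays together (mean-variance trend, 21.6 degrees of freedom). The methods name no test for the arrays. P values were two-sided, adjusted by Benjamini-Hochberg over all probe sets within each of 12 comparisons, and called under 0.05. They rest on each array being 1 rat, and may be too small if arrays share RNA. No pair of arrays held more than 0.254% of equal values, so no array is a copy of another. This cannot show whether arrays share RNA. Exact permutation tests over 35 splits (SciPy 1.17.1) are unadjusted, over 30 tests.

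The 8 member genes, the 5 pathway lists and the marker lists were chosen with earlier results of these data known. Pathway and marker genes were read by their probe set with the highest mean, and up to 4 per list were named by the smallest adjusted p, besides Fshb, Gnrhr, Smad2, Smad3, Smad4, Acvr1, Acvr1c, Tgfbr3 and Igsf1. Alternatives were the 60th percentile or no filter, an added 1 or 64, quantile normalization, median centring, no variance trend, only the groups compared, blocks and subsets by array number, and leaving out each array. Leaving out BN DES arrays 3 and 4 was added after seeing the data. On simulated data only 200 of 21858 probe sets were changed. A log2 change of 1 was recovered in 53% and of 2 in 94% of cases for DES against control in ACI, with 15 false calls among 162. When the DES responses of ACI and BN were compared, these shares were 30% and 76%, with 8 false calls among 114. In the data 49.1% of probe sets were called with DES in ACI, so the adjustment is less strict there. The simulated recovery therefore does not give that of the tests made here. For arrays, precision is limited by their number. Promoters came from RefSeq (GRCr8).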

Additional observations from a re-analysis of the deposited data

Results flagged for a closer look

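The response to DES differed between strains, by a test of the difference itself, for 2 of 10 member probe sets and 7 of 24 other pathway genes tested. Between ACI and BN these were Inhbb (-0.92) and Fstl3 1379440_at (2.09), and among the other genes Gnrhr (-2.01), Foxl2 (-1.38), Pcsk6 (1.15), Fshb (-1.01), Skil (-0.81) and Synj2bp (-0.72), each the ACI minus the BN log2 change. Between COP and BN they were Gdf11 (1.19), Pcsk6 (1.14) and Fshb (-0.76). Of all probe sets tested, 14.1% were called for the difference between ACI and BN and 5.22% for that between COP and BN. These shares are for single comparisons, whereas the counts of 2 and 7 take a call in any comparison. A share of that kind was not taken over all probe sets. The Synj2bp difference was called in 20 of 27 alternatives and was lost with median centring (adjusted p = 0.0759), in a fit of only the groups compared (0.0645), without BN DES arrays 3 and 4 (-0.49, adjusted p = 0.11) and without ACI control 3, BN control 1 or BN control 2 (0.0599 to 0.0819). Synj2bp, whose product helps to take up the type II receptors, is named here for this difference, after its values were seen, and another of its probe sets, 1368041_at, rose with DES in each strain (0.92, 0.81 and 0.60). Gnrhr was already lower in BN controls (355.4 to 526.6) than in ACI controls (2574.3 to 2981). In the 30 sets of 4 DES arrays no member value stood far from the other 3 by the Dixon test.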

How the results depend on the processing

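No value of a named gene changed sign with a call. Of 2468 values of the member probe sets under the alternatives, 2377 stayed on their side of the threshold, 43 gained a call and 48 lost it, and of 2598 values of the other named pathway genes 40 gained and 71 lost one. The causes were not tested. The count of member probe sets called with DES in ACI (4) was 2 with a filter at the 60th percentile, 2 in arrays numbered 3 and 4 alone, 5 with quantile normalization, and 6 with 64 added, with median centring or in a fit of only the groups compared. In COP (3) it was 1 with that filter, 1 in arrays 3 and 4 alone, and 1 to 4 when single arrays were left out, with 1 without COP control 1. In BN (2) it was 1 with no filter, 1 with the 60th percentile filter, 1 with quantile normalization, 1 with median centring, 1 with no variance trend, 1 in arrays 3 and 4 alone, 0 in arrays 1 and 2 alone, 0 in a fit of only the groups compared, 0 without BN DES arrays 3 and 4, and 0 to 3 when single arrays were left out, with 0 without BN DES 4 and 1 without BN DES 3 or any BN control. The filter at the 60th percentile removed 6 of the 10 probe sets, which left 4. In DES-treated rats the count for ACI against BN (4) was 2 with that filter, and for ACI against COP (1) 0 in arrays 3 and 4 alone. For COP against BN (2) it was 1 in arrays 3 and 4 alone, 1 without BN DES arrays 3 and 4, 1 in a fit of only the groups compared, and 1 to 3 when single arrays were left out, with 1 without COP DES 2. Comparing the DES response of ACI with that of BN (2) gave 1 in arrays 1 and 2 alone, 1 in arrays 3 and 4 alone, 1 without BN DES arrays 3 and 4, and 1 to 3 when single arrays were left out, with 1 without ACI control 3, BN control 1 or BN control 2; ACI with COP (0) gave 1 in arrays 1 and 2 alone, and COP with BN (0) gave 0 to 1 when single arrays were left out, with 1 without COP DES 3 or BN DES 2. With median centring 57.4% of all calls with DES in ACI were higher, against 40.4%.

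No label ties an array number to an animal, batch or day, and not every pair of same-numbered arrays met the limit of 0.1 set for a pairing, so the numbers were not treated as pairs. The data still held a shared pattern by number or by set of numbers. The deviations of same-numbered arrays from their group means correlated over 0.1 in 32 of 48 pairs. Their median was 0.113 against -0.087 for different numbers, and 13 of 21 arrays correlated best with their own number. For arrays of different groups in the same set of numbers (1 and 2, or 3 and 4) the median was 0.112, against -0.124 across sets. The main fit holds no term for either pattern. With the number as a replicate block, the count for COP against BN in DES-treated rats was 4 in place of 2, and 4 with numbers 1 and 2 against 3 and 4 as a block. The added calls were Inhbb (-0.40, adjusted p = 0.0333 with the replicate block) and Inhba 1383486_at (-0.91, adjusted p = 0.0276). The replicate block also called the COP fall of Inhba 1383486_at (-0.99, adjusted p = 0.0191) and the ACI against BN response of Fstl3 1370120_at (1.84, adjusted p = 0.0273), and the block of number sets called Fstl3 in COP for 1379440_at (0.95, adjusted p = 0.037) and in ACI for 1370120_at (1.00, adjusted p = 0.0432). No member lost a call under either block.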

Other observations

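Acvr1c, which encodes another type I receptor of this family, stayed below the filter and was not tested. Its signal was 54.2, 54.7 and 61.1 in BN controls and 9.2, 3.1, 32.8 and 4.6 in DES-treated BN rats, whereas it lay between 2.3 and 4.1 in all 14 arrays of ACI and COP rats.

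Other probe sets of some pathway genes gave other values than the one with the highest mean. A second Smad4 probe set, 1367910_at, rose in ACI (0.82, adjusted p = 0.00963), and a second Tgfbr3 probe set, 1369219_at, fell in ACI (-1.04, adjusted p = 0.0481). Second probe sets of Fshb (-6.53, -6.45 and -5.40) and Gnrhr (-2.78, -2.20 and -0.68) fell in each strain, as did the first.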
